A study of Mus musculus with 8 samples.

Results

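LINE-1 (L1) retrotransposons occupy a large part of the mouse genome, and small RNA matching its copies was examined here in sperm on the sense strand, the strand of the element's own transcript, and on the antisense strand. The L1 set consisted of every repeat row of the deposited count table whose class and family were LINE and L1, on either strand. It held 234862 of the 1010917 rows of the table, 99577 for sense and 135285 for antisense matches, and each row stood for 1 genomic copy on 1 strand. Counts were summed by subfamily, which gave 132 subfamilies and 264 sums, all of them with at least 1 count, and the ratio of sense to antisense was taken within each subfamily.

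Small RNA was sequenced in 8 libraries from C57BL/6J mice. The 4 libraries labelled Control-Cessation and the 4 labelled EtOH-Cessation (called control and EtOH here) are described by the series title as collected 1 month after alcohol had stopped, so the comparison asks whether sperm small RNA differed between treated and control animals after that interval. The labels give neither dose nor age, and leave unsaid whether the libraries are from different animals, and p-values therefore reflect only how these samples vary, which may be technical. The labels name spermatozoa as the cell type, whereas the design text of the series names the caput of the epididymis.

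L1 elements copy themselves through an RNA that is reverse transcribed into new sites, and full-length members encode the proteins needed for this. In germ cells of the testis, PIWI proteins carry piRNAs, short RNAs that guide silencing of transposons: antisense piRNAs recognise the transposon transcript, and its cleavage can yield sense piRNAs. Later in spermatogenesis most piRNAs come from large clusters of mostly unique sequence, which hold scattered transposon fragments. Names carry a rough order of age: L1Md is the mouse lineage with active members, Lx and L1_Mus belong to rodents, and L1M subfamilies are old elements shared across mammals.

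Library totals ran from 4210785 to 4768713 counts in controls and from 3116421 to 6805989 in EtOH libraries, and EtOH replicate 2 was the shallowest. It also stood apart in composition, with 30.5% of its counts on annotated exons against 7.07% to 10.4% in the other 7 libraries. The 10 spermatid and sperm marker genes were all detected, with a summed level of 404 to 498 CPM (reads scaled to a common library size of 1e+06) in controls and 252 to 370 in EtOH libraries. Of 11 epididymal epithelium markers, 9 were detected, with a summed level of 359 to 497 CPM in controls and 708 to 17646 in EtOH libraries, the highest in EtOH replicate 2, and Defb21 and Spint4 were at 0. Summed leukocyte markers (7 of 7 detected) ran from 8.49 to 17.3 CPM in controls and from 4.996 to 35.6 in EtOH libraries, red blood cell markers (5 of 5) from 15.6 to 32.5 and from 1.62 to 17.7, and smooth muscle markers (5 of 5) from 18.03 to 102 and from 15.6 to 42.6. The part that these other cell types have in the L1 values below was not tested, and fewer cells of a type and less RNA per cell cannot be told apart in such libraries.

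L1 reads came from very many copies with very few counts and from a few copies with very many. A count was present in 193389 L1 rows, and 51630 of the 81798 sense rows and 68806 of the 111591 antisense rows had a single count over all 8 libraries. Of 171593 copies with a count, 21796 had counts on both strands. Sums over a subfamily grow with its number and length of copies, which are not in the table, so levels are compared between libraries and strands and not between subfamilies.

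A single copy supplied most of the sense counts. The copy named L1Md_F2_copy29260, of a mouse-lineage subfamily, held 372834 sense counts and only 148 antisense counts. It took 59.4%, 65.1%, 64.1% and 62.1% of all L1 sense counts in control replicates 1 to 4, and 47.1%, 69.6%, 57.1% and 65.9% in EtOH replicates 1 to 4. No other L1 copy came near it, since the next most abundant sense copies, L1MB5_copy3367, Lx10_copy4567 and L1MA6_copy4539, had 9702, 7907 and 7441 counts. Which RNA the reads on L1Md_F2_copy29260 come from cannot be told from the counts, and they need not be from an L1 transcript.

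Antisense counts were spread more widely. The 10 most abundant antisense copies held 27.6% ± 2.84 (SD, n = 4) of L1 antisense counts in controls and 32.6% ± 5.25 (SD, n = 4) in EtOH libraries. The leading copies included L1M2_copy15762 with 37978 counts, L1M2_copy15765 with 32076 and Lx5c_copy6531 with 18228. Of these, the L1M2 pair belongs to an old mammalian subfamily and Lx5c_copy6531 to a rodent one. With a line of 400 counts over the 8 libraries, chosen after the values were seen, 80 antisense copies were abundant, of which 47 were rodent, 31 L1M and 2 L1Md. On the sense strand 30 copies passed that line, L1Md_F2_copy29260 included. In 14 of 94 tested sense sums and 14 of 100 tested antisense sums a single copy gave more than 50% of the counts.

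**Figure D1:**
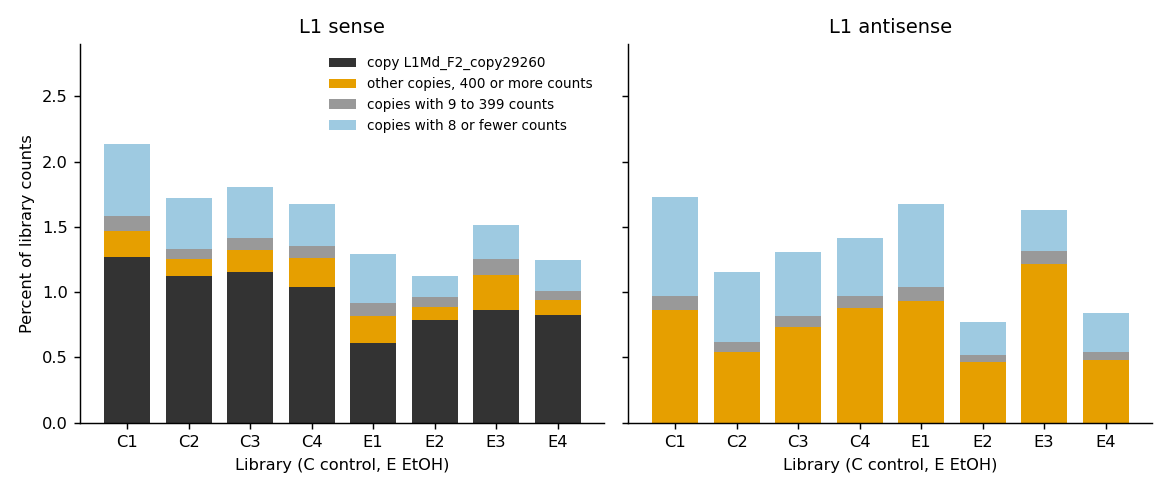
Share of the library total (percent, vertical axis) taken by L1 small RNA in each of the 8 libraries, stacked by component for the sense and the antisense strand; C1 to C4 are control and E1 to E4 EtOH replicates. On the sense strand the single copy L1Md_F2_copy29260 is the tallest component, at 1.04% to 1.27% in controls and 0.609% to 0.865% in EtOH libraries.

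Counts on L1 sense rows took a smaller share of the EtOH libraries, and most of that difference lay in 1 copy. The sense share was 2.14%, 1.72%, 1.80% and 1.67% of all counts in control replicates 1 to 4 and 1.29%, 1.13%, 1.51% and 1.25% in EtOH replicates 1 to 4. The groups did not overlap, with means of 1.83% ± 0.208 (SD, n = 4) and 1.30% ± 0.162 (SD, n = 4). The two-sided exact permutation p was 0.0286, the smallest that 4 against 4 libraries allow. After adjustment over the 15 L1 measures it was 0.214, so the difference did not pass the threshold. An adjusted p below 0.05 would need most of the 15 measures at that smallest value, so this adjustment could hardly be passed.

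L1Md_F2_copy29260 was 1.27%, 1.12%, 1.154% and 1.04% of the controls and 0.609%, 0.783%, 0.865% and 0.823% of the EtOH libraries, again without overlap. In the edgeR fit its log2 fold change, EtOH over control, was -0.80 (SE 0.33) with an adjusted p of 0.138, whereas DESeq2 gave -0.70 and 0.0278, and edgeR with libraries scaled to piRNA cluster totals -0.46 and 0.525. Set against the miRNA counts of the same library, which were 20.2% ± 5.06 (SD, n = 4) of controls and 8.44% ± 1.71 (SD, n = 4) of EtOH libraries, the copy stood at 4.05% to 6.83% in controls and 6.29% to 11.8% in EtOH libraries. Its direction between the groups thus turned with the denominator. Across the 8 libraries its share and the miRNA share had Pearson's r = 0.773 (exact permutation p 0.0200, adjusted over 8 relations 0.0533) and Spearman's rho = 0.857 (exact permutation p 0.0107, adjusted 0.0286). Without the 2 libraries farthest from the median miRNA share, control replicate 2 and EtOH replicate 2, r was 0.872, but within controls r was -0.02 and within EtOH libraries -0.24, so the relation lay between the groups.

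Without that copy, the L1 sense share was 0.688% ± 0.121 (SD, n = 4) in controls and 0.525% ± 0.167 (SD, n = 4) in EtOH libraries, with overlapping groups and an exact permutation p of 0.286. Antisense L1 RNA took 1.73%, 1.151%, 1.31% and 1.42% of control replicates 1 to 4 and 1.67%, 0.768%, 1.63% and 0.841% of EtOH replicates 1 to 4. Its means were 1.40% ± 0.244 (SD, n = 4) and 1.23% ± 0.490 (SD, n = 4), with an exact permutation p of 0.486 (adjusted 0.607). EtOH replicates 1 and 3 stood within the control range and replicates 2 and 4 below it.

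By name group, the L1Md sense share was 1.20% ± 0.105 (SD, n = 4) in controls and 0.807% ± 0.108 (SD, n = 4) in EtOH libraries (exact permutation p 0.0286, adjusted 0.214), a value that contains L1Md_F2_copy29260. The rodent sense share was 0.445% ± 0.0899 against 0.317% ± 0.0974 (SD, n = 4 each, exact permutation p 0.143). The L1M sense share was 0.187% ± 0.0263 against 0.169% ± 0.0625 (SD, n = 4 each, exact permutation p 0.629). None of the antisense shares of these groups had an exact permutation p below 0.05, before or after adjustment. The L1M antisense share was 0.483% ± 0.0816 in controls and 0.480% ± 0.207 in EtOH libraries (SD, n = 4 each, exact permutation p 1). The L1Md antisense share was 0.0917% ± 0.0190 against 0.0712% ± 0.0258 (SD, n = 4 each, exact permutation p 0.286).

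Abundant copies and thinly covered ones were also summed apart. The 29 abundant sense copies other than L1Md_F2_copy29260 took 0.179% ± 0.0390 of controls and 0.176% ± 0.0783 of EtOH libraries (SD, n = 4 each, exact permutation p 0.914), and the 80 abundant antisense copies 0.755% ± 0.157 and 0.775% ± 0.364 (exact permutation p 0.914). The 80394 sense rows with at most 8 counts in all took 0.412% ± 0.0990 and 0.259% ± 0.0856 (SD, n = 4 each, exact permutation p 0.0571), and the corresponding antisense rows 0.559% ± 0.139 and 0.373% ± 0.179 (exact permutation p 0.143). Without EtOH replicate 2 the thin sense rows stood at 0.290% ± 0.0721 in the EtOH group (n = 3, exact permutation p 0.143).

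Abundant antisense L1 copies tracked the piRNA clusters. The piRNA cluster rows, which hold reads from annotated piRNA-producing loci, took 14.7% to 25.1% of control counts and 13.0% to 34.5% of EtOH counts. Across that range the abundant antisense copies stayed at 3.67%, 3.70%, 3.59% and 3.51% of the piRNA cluster counts in control replicates 1 to 4 and 3.64%, 3.58%, 3.51% and 3.36% in EtOH replicates 1 to 4. The correlation of both shares over the 8 libraries was r = 0.997 and rho = 1, each with an exact permutation p of 4.96e-05 and 0.000397 after adjustment over 8 relations. Without EtOH replicates 2 and 3, the libraries farthest from the median cluster share, r was 0.994, and it was 0.995 within controls and 0.998 within EtOH libraries. Both shares have the same library total as denominator, and the sources used here do not say whether a read in a cluster was also counted on the repeat copy inside it.

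The 29 abundant sense copies stood at 0.859% ± 0.0237 of cluster counts in controls and 0.806% ± 0.0208 in EtOH libraries (SD, n = 4 each). These groups did not overlap (exact permutation p 0.0286, unadjusted), whereas those of the antisense copies did (exact permutation p 0.257). Across the 8 libraries the sense copies had r = 0.991 (exact permutation p 0.000149, adjusted 0.000595) and rho = 0.976 (exact permutation p 0.000397, adjusted 0.00159). Without EtOH replicates 2 and 3, r was 0.993. For the thin antisense rows r was 0.197 (exact permutation p 0.628, adjusted 0.984) and rho 0.429 (exact permutation p 0.299, adjusted 0.479), and their level ran from 0.896% to 3.64% of the cluster counts. Without EtOH replicates 2 and 3 their r was 0.569. For L1Md_F2_copy29260 r was -0.06 (exact permutation p 0.889, adjusted 0.984) and rho 0.0238 (exact permutation p 0.977, adjusted 0.977).

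**Figure D2:**
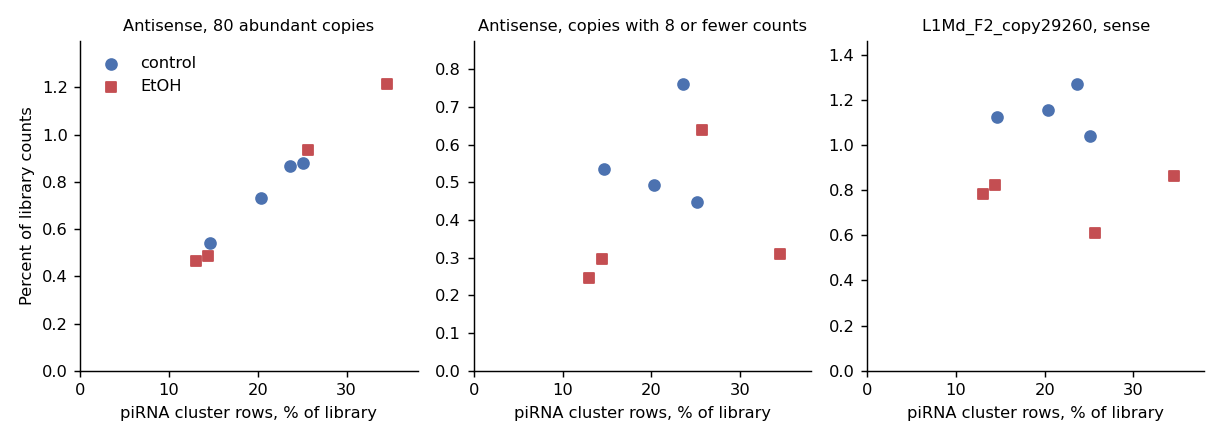
L1 share of the library total (percent, vertical axis) against the piRNA cluster share (percent, horizontal axis), with 1 point per library, control and EtOH in separate colours. Abundant antisense copies lie along a line over the cluster range of 13.0% to 34.5% (r = 0.997, n = 8), while thin antisense rows scatter more widely (r = 0.197, and 0.569 without EtOH replicates 2 and 3).

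The 26 genes listed for the pathway that makes and uses piRNAs were represented weakly, as fragments on exon rows. Of them 24 had a count and 5 had a row with enough counts to be tested: Pld6, which acts in forming piRNA 5′ ends, Piwil1 and Piwil2, which encode PIWI proteins, and Tdrd1 and Tdrd6, which encode Tudor proteins of germ granules. None of the 5 passed the threshold in edgeR or in DESeq2, beside 0.0217% of all exon rows in edgeR, and 0 had an unadjusted p below 0.05 in edgeR, beside 40.1% of all exon rows. Their median log2 fold change was -0.17, beside 0.70 over all 4600 exon rows tested. Piwil2 had the most counts, 604 over its exons, at 15.3 ± 4.25 CPM in controls and 13.8 ± 5.29 CPM in EtOH libraries (SD, n = 4 each). Tdrd6 followed with 202 counts, Tdrd7, another Tudor gene, with 172, and Piwil1 with 160.

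Apart from L1Md_F2_copy29260, L1 small RNA was antisense-rich in every library. With that copy included, the log2 ratio of sense to antisense was 0.31, 0.58, 0.46 and 0.24 in control replicates 1 to 4 and -0.37, 0.55, -0.10 and 0.57 in EtOH replicates 1 to 4, with means of 0.40 ± 0.15 and 0.16 ± 0.47 (SD, n = 4 each, exact permutation p 0.4, adjusted 0.6). Without it the ratio was -1.03 ± 0.10 in controls and -1.19 ± 0.16 in EtOH libraries (SD, n = 4 each, exact permutation p 0.171), and all 8 libraries were below 0. A log2 ratio of -1 means that antisense counts were 2 times the sense counts.

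Beside all other repeats the direction turned with L1Md_F2_copy29260. The other repeats, summed, had a mean log2 ratio of -0.17 ± 0.24 (SD, n = 8). L1 with every copy stood at 0.28 ± 0.35 and was higher in 7 of 8 libraries, whereas L1 without that copy stood at -1.11 ± 0.15 and was lower in 8 of 8. No test was made of this difference, since the copy was set aside for its high sense count and no leading copy of the other repeats was. Some other families also had more antisense than sense counts: the ERVK family, retroviral elements with active mouse members, stood at -0.95 ± 0.07 in controls and -0.99 ± 0.12 in EtOH libraries (SD, n = 4 each), and ERVL-MaLR elements at -0.51 ± 0.13 and -0.55 ± 0.19. The Alu family of SINE repeats was near balance in controls, at -0.02 ± 0.03, and stood at -0.30 ± 0.11 in EtOH libraries (SD, n = 4 each). Its groups did not overlap (exact permutation p 0.0286, unadjusted).

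Within L1, the 109 copy and strand rows with abundant counts other than L1Md_F2_copy29260 had a log2 ratio of -2.07 ± 0.05 in controls and -2.13 ± 0.07 in EtOH libraries (SD, n = 4 each). The thin rows stood at -0.44 ± 0.06 and -0.48 ± 0.24. Rows were chosen by the count of their own strand, so the first ratio sets 29 sense rows against 80 antisense rows. It leaves out the largest sense row and the less abundant strand of most of these copies. The contrast with the thin rows therefore depends on that choice. The thin rows were below 0 in every library for L1Md, rodent and L1M copies alike. Thin rows of L1Md averaged -0.57 ± 0.10 in controls, of rodent subfamilies -0.37 ± 0.07 and of L1M subfamilies -0.61 ± 0.05 (SD, n = 4 each).

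The subfamilies differed widely in their strand. Of 90 with enough counts (a mean of at least 50 per library, and at least 5 on each strand), 70 had a mean log2 ratio below 0 and 20 above, 50 were below 0 in every library and 16 above 0 in every library. Their median was -0.61, beside -0.23 for 319 other repeat subfamilies, of which 179 were below 0 and 140 above. By name group, 4 of 5 L1Md, 23 of 33 rodent, 41 of 50 L1M and 2 of 2 other subfamilies were below 0.

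The most antisense subfamilies were all of the old L1M type. L1M4a1 had a mean log2 ratio of -6.60 ± 0.48 (SD over 8 libraries, range -7.13 to -5.85), and L1MA10 of -5.30 ± 1.32. L1MC stood at -5.01 ± 0.32, L1ME3 at -4.41 ± 0.57 and L1M2 at -4.28 ± 0.32. In each of these 5 the sign was the same in all 8 libraries. Single copies gave much of their antisense counts. The most abundant copy held 7563 of 8384 in L1M4a1, 2690 of 2803 in L1MA10 and 2943 of 4024 in L1ME3. In L1MC it held 12256 of 32624 and in L1M2 37978 of 77042.

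At the sense end, L1Md_F2 led with 4.66 ± 0.55, and 97.0% of its sense counts were the copy L1Md_F2_copy29260. The next were again L1M subfamilies: L1M1 at 4.48 ± 0.64, L1MB5 at 4.14 ± 0.57, L1MEg at 3.17 ± 0.61 and L1ME4c at 2.92 ± 0.60 (SD, n = 8 each). A single copy held 1767 of 1838 sense counts of L1M1, 9702 of 18651 of L1MB5, 3500 of 4700 of L1MEg and 601 of 717 of L1ME4c. Old L1M subfamilies thus stood at both ends, but with much of their counts from single copies, so these ratios need not hold for the subfamily as a whole. The L1Md subfamilies with active members were closer to balance, with L1Md_A at -0.51 and L1Md_T at -0.36. L1Md_F was at -2.79 and L1Md_F3 at -1.22 ± 1.08 (SD, n = 8). The L1Md_F3 mean was lowered by EtOH replicate 2, at -3.75, while the other libraries ran from -1.49 to -0.28. In that library L1Md_F3_copy6920 had 667 antisense counts, against 39 to 138 in the others. For L1Md_F, 77.6% of the antisense counts came from a single copy.

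**Figure D3:**
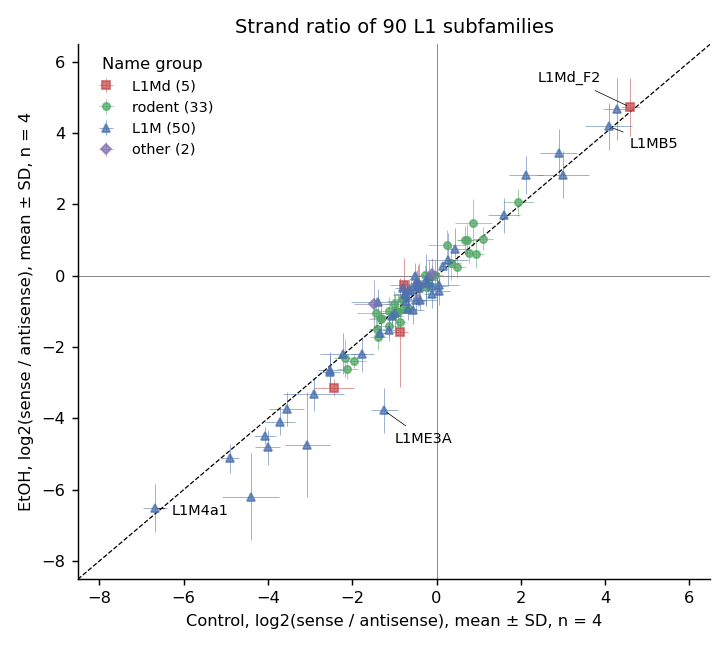
Log2 ratio of sense to antisense counts by L1 subfamily, control mean on the horizontal and EtOH mean on the vertical axis, with SD bars (n = 4 per group) and the 90 subfamilies coloured by name group. Most points lie along the diagonal, and L1ME3A lies below it, at -1.24 in controls and -3.78 in EtOH libraries.

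Between control and EtOH libraries, L1ME3A, a subfamily of old L1M elements, was the 1 L1 subfamily whose strand ratio passed the threshold in edgeR. Its log2 ratio was -1.61, -1.42, -0.92 and -1.03 in control replicates 1 to 4 and -3.85, -4.11, -4.29 and -2.86 in EtOH replicates 1 to 4, so the groups lay apart. The fitted change in an edgeR model with the library as a block was -2.54 on the log2 scale (SE 0.31), with an adjusted p of 0.00330. Of 90 L1 subfamilies 1 passed as lower and 0 as higher, beside 0.489% lower and 0.244% higher of the 409 repeat subfamilies tested. At an unadjusted p below 0.05, 9 L1 subfamilies were lower and 1 was higher, beside 8.31% and 3.18% of all. The median change over the 90 was -0.02.

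L1ME3A sense RNA was also the 1 L1 subfamily sum that passed the threshold in edgeR. The sum was 52.6, 43.9, 72.4 and 89.4 CPM in control replicates 1 to 4 and 6.18, 2.43, 5.92 and 5.92 CPM in EtOH replicates 1 to 4. The lowest control was far above the highest EtOH library, and the log2 fold change was -3.64 (SE 0.44, edgeR adjusted p 0.00437). With libraries scaled to their piRNA cluster totals the log2 fold change was -3.46 and the edgeR adjusted p 0.0706, in a fit where 0 of 9822 features passed.

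That change rested on 1 genomic copy. L1ME3A_copy920 held 81.8% of the sense counts of the subfamily, with 201, 154, 261 and 365 sense counts in control replicates 1 to 4 and 4, 1, 5 and 1 in EtOH replicates 1 to 4. In CPM the copy was at 59.1 ± 17.5 in controls and 0.422 ± 0.238 in EtOH libraries (SD, n = 4 each), with a log2 fold change of -6.98 (SE 0.55, edgeR adjusted p 0.000106). The deeper EtOH libraries, with up to 6805989 counts, had no more than 5 of these reads. With each of the 8 libraries left out in turn, its log2 fold change ran from -7.36 to -6.71 and its edgeR adjusted p from 4.53e-06 to 0.00765.

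Its antisense strand remained readily detected, with 651, 430, 514 and 760 counts in control replicates 1 to 4 and 581, 133, 724 and 207 in EtOH replicates 1 to 4. At 143 ± 22.5 against 63.0 ± 31.9 CPM (SD, n = 4 each) the antisense log2 fold change was -1.18 (SE 0.42), which did not pass with an edgeR adjusted p of 0.102. The groups did not overlap in CPM, at 118 to 168 in controls and 35.9 to 98.5 in EtOH libraries. The strand ratio of the copy ran from -1.69 to -0.98 in controls and from -7.11 to -6.48 in EtOH libraries on the log2 scale.

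The rest of L1ME3A did not pass the threshold. The other 138 sense rows of the subfamily with a count had 31, 20, 31 and 24 counts in control replicates 1 to 4 and 40, 8, 34 and 33 in EtOH replicates 1 to 4. Their log2 fold change was -0.42 (SE 0.39, edgeR adjusted p 0.509), and without the copy the strand ratio of L1ME3A changed by -0.07 (SE 0.32, edgeR adjusted p 0.964). How reads that match many copies were assigned is not given in the sources used here, and values of any single repeat copy are uncertain.

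**Figure D4:**
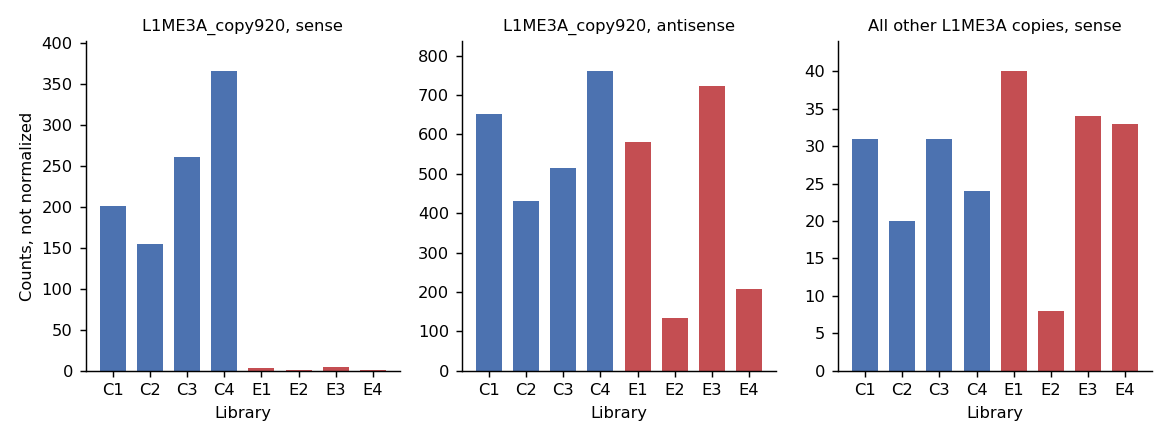
Raw counts per library (vertical axes, starting at 0) for the sense strand of L1ME3A_copy920, its antisense strand and the sense strand of all other L1ME3A copies; C1 to C4 are control and E1 to E4 EtOH replicates. Sense counts of the copy are 154 to 365 in controls and 1 to 5 in EtOH libraries, while its antisense counts range from 133 to 760 over all 8 libraries. In CPM, not drawn here, its antisense strand is lower in every EtOH library than in every control.

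Beyond L1ME3A, the L1 subfamily sums mostly had fitted changes below 0, as did the sums of other repeats, without passing singly. Of the 264 sums 194 had enough counts to be tested. In edgeR 1 was lower and 0 were higher, beside 1.83% lower and 8.08% higher of all 9822 features in the fit. Those shares over all features depended on single libraries, since with each left out in turn they ran from 0.029% to 3.78% lower and from 0.00811% to 18.5% higher. At an unadjusted p below 0.05, 16 were lower and 0 higher, beside 8.46% and 20.7% of all. The median log2 fold change of the 194 was -0.52, beside -0.04 over all features and -0.38 over 844 other repeat sums. Of the 194, 188 were below 0, beside 771 of the 844 other repeat sums and 5167 of the 9822 features. Fitted changes below 0 were thus common to repeats and not particular to L1.

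The scaling moved both medians. With library size alone the L1 median was -0.38 and that of all features 0.10, with piRNA cluster totals -0.38 and 0.12, and with median-of-ratios size factors -0.49 and -0.01. Without EtOH replicate 2 the L1 median was -0.28 and that of all features 0.07. A change of scaling shifts L1 sums and all features by much the same amount. The difference between their medians could therefore hardly respond to it, and these scalings do not test that difference.

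Every EtOH library lay below every control in 33 of the 194 sums and above in 0, beside 7.57% below and 10.8% above over all features. Of the 33, 27 were among the 94 sense sums and 6 among the 100 antisense sums. The rodent sense sums held 16 of them (of 33), the L1Md sense sums 3 (of 6) and the L1M sense sums 8 (of 53). The median log2 fold change was -0.51 over the sense and -0.52 over the antisense sums, and the difference between strands was not tested.

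Lx2 had the lowest p among the rodent sums. Its sense sum, spread over 3142 copies with no more than 3.12% from 1 of them, was 431, 298, 298 and 261 CPM in control replicates 1 to 4 and 215, 81.6, 179 and 142 CPM in EtOH replicates 1 to 4. The groups did not overlap, and the log2 fold change was -1.06 (SE 0.38) with an edgeR adjusted p of 0.0860. Its relative Lx2B was at 80.6 ± 15.9 against 40.3 ± 14.2 CPM (SD, n = 4 each, log2 fold change -0.997, edgeR adjusted p 0.0970).

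DESeq2 called 10 L1 sums lower and 0 higher. The 10 were 5.15% of the 194 L1 sums, near the 4.56% called lower over all 9822 features, of which 15% were called higher. They were the sense sums of L1ME3A, Lx2, Lx2A, Lx2B, L1VL1, L1MA5, L1Md_F and L1Md_F2, and the antisense sums of L1M4c and L1MDb. In all 10 the groups did not overlap. The sums were picked by DESeq2 from these same counts, so the lack of overlap adds no separate evidence. Outside L1ME3A their DESeq2 log2 fold changes ran from -1.13 to -0.67.

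Among the active mouse lineage, L1Md_A sense RNA stood at 45.6, 38.6, 49.9 and 33.3 CPM in control replicates 1 to 4 and 34.9, 34.6, 30.7 and 27.2 CPM in EtOH replicates 1 to 4, with overlapping groups (log2 fold change -0.39, edgeR adjusted p 0.448). Its antisense sum was 71.2 ± 10.6 against 41.9 ± 24.1 CPM (SD, n = 4 each, log2 fold change -0.76, edgeR adjusted p 0.238). L1Md_T was at 69.9 ± 8.04 against 49.6 ± 15.9 CPM for sense and 95.3 ± 17.6 against 62.2 ± 30.1 CPM for antisense (SD, n = 4 each), with edgeR adjusted p of 0.374 and 0.312. EtOH replicate 1 was the highest EtOH library for the antisense sums of both subfamilies and lay within the control range.

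L1Md_F sense RNA was at 33.0 ± 10.8 against 16.7 ± 6.31 CPM without overlap (SD, n = 4 each, log2 fold change -0.98, edgeR adjusted p 0.124). L1Md_F3 antisense RNA was at 95.2 ± 11.4 against 106 ± 73.9 CPM (SD, n = 4 each, log2 fold change 0.16, edgeR adjusted p 0.867). EtOH replicate 2 stood at 209 CPM and the other 3 EtOH libraries between 52.2 and 111. That high value rested mostly on L1Md_F3_copy6920, at 182 CPM in EtOH replicate 2 and 9.24 to 19.4 CPM in the other libraries. L1Md_Gf was scarce, at 5.47 ± 2.14 against 2.87 ± 1.04 CPM for antisense (log2 fold change -0.90, edgeR adjusted p 0.171). None of the 12 L1Md sums passed the threshold in edgeR.

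The most abundant antisense sums spread widely among EtOH libraries. L1M2 was at 2087, 1424, 1731 and 2165 CPM in control replicates 1 to 4 and at 2251, 895, 3003 and 1167 CPM in EtOH replicates 1 to 4 (log2 fold change -0.02, edgeR adjusted p 0.988). L1MC was at 793 ± 144 against 771 ± 403 CPM and Lx9 at 1156 ± 167 against 1024 ± 457 CPM (SD, n = 4 each), with log2 fold changes of -0.04 and -0.17. In all 3, EtOH replicate 3 was the highest library and EtOH replicate 2 the lowest, which are also the highest and the lowest in piRNA cluster share. The rodent subfamily L1_Mus3 was at 990 ± 190 against 739 ± 338 CPM for antisense and 445 ± 60.6 against 264 ± 82.6 CPM for sense (SD, n = 4 each), with log2 fold changes of -0.42 and -0.75 and edgeR adjusted p of 0.515 and 0.174.

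Abundant sense sums rested on few copies or on many. L1MB5, with 52.0% of its sense counts from L1MB5_copy3367, was at 492, 319, 464 and 570 CPM in control replicates 1 to 4 and 546, 212, 722 and 253 CPM in EtOH replicates 1 to 4 (log2 fold change -0.09, edgeR adjusted p 0.929). Lx10, with 71.0% from Lx10_copy4567, was at 290 ± 56.9 against 250 ± 118 CPM (SD, n = 4 each, log2 fold change -0.21, edgeR adjusted p 0.778). For both, EtOH replicate 3 was the highest library and EtOH replicate 2 the lowest. Lx8 sense RNA, in contrast, came from 5331 copies with no more than 2.60% from 1 of them, and was at 405, 306, 313 and 294 CPM in control replicates 1 to 4 and 281, 128, 227 and 180 CPM in EtOH replicates 1 to 4. Its groups did not overlap, and the log2 fold change of -0.69 had an edgeR adjusted p of 0.207.

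On the antisense strand, Lx8 was at 861 ± 116 against 700 ± 312 CPM (log2 fold change -0.30, edgeR adjusted p 0.653) and Lx5c at 771 ± 127 against 692 ± 330 CPM (log2 fold change -0.16, edgeR adjusted p 0.845; SD, n = 4 each). Lx5c took 60.4% of its antisense counts from Lx5c_copy6531. L1MDb, an old and scarce subfamily, was at 2.74 ± 0.318 against 1.20 ± 0.330 CPM without overlap (SD, n = 4 each, log2 fold change -1.14, edgeR adjusted p 0.0595). The HAL1 elements, relatives of L1 that lack the second reading frame, were also scarce: MusHAL1 was at 28.8 ± 7.14 against 15.5 ± 9.60 CPM and HAL1ME at 4.09 ± 1.06 against 2.02 ± 1.13 CPM (SD, n = 4 each), with log2 fold changes of -0.88 and -0.96 and edgeR adjusted p of 0.190 and 0.152. In both, EtOH replicate 1 lay within the control range.

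Of the 194 sums only 6 had a fitted log2 fold change above 0, beside 73 of 844 other repeat sums. None of the 6 passed the threshold in edgeR. They included L1M sense RNA at 7.15 ± 2.39 against 8.54 ± 4.46 CPM (SD, n = 4 each, log2 fold change 0.27, edgeR adjusted p 0.743), of which 96.7% was 1 copy, and L1ME4a sense RNA at 2.67 ± 0.716 against 2.86 ± 0.938 CPM (log2 fold change 0.09, edgeR adjusted p 0.913).

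**Figure D5:**
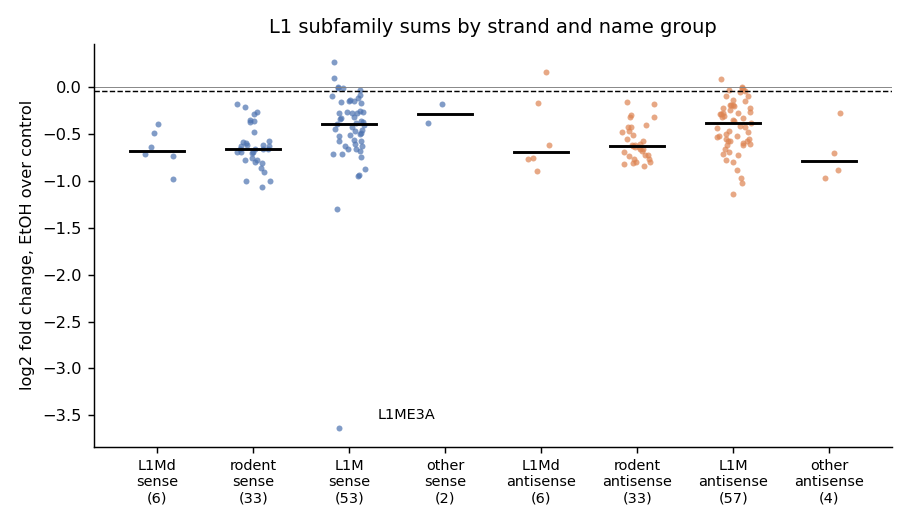
Log2 fold changes (EtOH over control, vertical axis) of the L1 subfamily sums tested, split by strand and name group, with 1 point per sum, black bars for medians and a dashed line for the median of all 9822 features (-0.04). The L1 points centre on -0.52, and the L1ME3A sense sum lies lowest at -3.64.

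Single copies mostly had too few counts to test. Of the 234862 rows 228 were tested, and in edgeR 1 was lower, the sense strand of L1ME3A_copy920, and 0 were higher, beside 0.137% lower and 0.0489% higher of all 10234 features in that fit. At an unadjusted p below 0.05, 7 were lower and 3 higher, beside 9.15% and 17.9% of all. Their median log2 fold change was -0.16, against -0.09 over all features. The copies with enough counts for a test are the abundant ones, so this median does not speak for the thin rows that make up most of the L1 set.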

How the data were processed

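The deposited values are whole-number counts per annotated feature and library, with no normalization applied. Per the labels, RNA was extracted with a guanidinium and reducing-agent protocol and only read 1 was used. The submitters' processing notes name cutadapt for adapter trimming. No source used here gives the aligner, genome build, repeat annotation or the handling of reads that match many copies, so no coordinates or sequences are printed. Columns and samples were joined on the sample titles.

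Repeat rows were summed by subfamily and strand, with all other rows kept, and filtered with filterByExpr (minimum count 10, minimum total 15). Scaling was by trimmed mean of M values. The quasi-likelihood F test of edgeR 4.0.16 (R 4.3.3) was adjusted over every feature by Benjamini-Hochberg, with a threshold of 0.05. Single copies were tested in the table as deposited. CPM of sums and of copies use the scaled library sizes of their own fit, so a copy and its sum are scaled slightly differently, and CPM of marker and pathway genes use library totals. Strand ratios (0.5 added to each count for the values printed) were tested as an interaction of strand and group with a library block. Shares were compared by an exact two-sided permutation test with 70 permutations, adjusted over 15 measures. DESeq2 1.42.0, limma 3.58.1, other scalings, filters and libraries left out were alternatives.

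Named features were up to 8 per direction past the threshold, the 6 most abundant sums per strand, the 2 with the lowest p per direction in each name group, the 5 highest and 5 lowest ratios, the 4 most abundant copies per strand and the 4 pathway genes with most counts. A copy that this rule named is not reported here. The lines of 400 and 8 counts, L1Md_A, L1Md_T, L1Md_F3_copy6920 and the sums named from DESeq2 were chosen after their values were seen. The members and lists were chosen with earlier results of these data known.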

Additional observations from a re-analysis of the deposited data

Results flagged for a closer look

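Of 114 sets of 4 libraries looked at, 9 held a library whose gap to the next exceeded Dixon's critical share of the whole range, where chance gives about 1 in 20. In controls, replicate 1 stood apart with an L1Md antisense share of 0.120% (next 0.0859%), a rodent sense share of 0.580% (next 0.408%) and Lx8 sense RNA of 405 CPM (next 313 CPM). EtOH replicate 1 stood apart in the other name group, HAL1 and the like, with an antisense share of 0.00639% (next 0.00272%) and a log2 ratio of -1.21 (next -0.26), and with MusHAL1 antisense RNA of 29.8 CPM (next 12.01 CPM). It also had the lowest log2 ratio of L1Md_F2, 3.53 against 4.99 in the next. EtOH replicate 3 had the highest log2 ratio of L1M1, 5.97 against 4.35. EtOH replicate 2, the shallowest library, had the lowest L1ME3A sense level, 2.43 CPM against 5.92 CPM in the next.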

How the results depend on the processing

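Of 164 recomputed summary values, 146 kept their direction and their side of the threshold. L1 sums called lower numbered 1 in the edgeR fit (of all 9822 features, 180), 10 with DESeq2 (448), 0 with piRNA cluster totals as scale (0) and 0 without L1ME3A_copy920 or without the most abundant copy of each sum. With each library left out in turn they numbered 1 to 3, the 3 arising without EtOH replicate 3 (422). L1 copies called lower numbered 4 with DESeq2 (1.75% of those tested, beside 3.95% of all features), 8 with the EtOH libraries whose titles carry M identifiers alone (2.74%, beside 2.69%), 15 with no filter (0.00776%, beside 0.0203%) and 1 to 3 with each library left out. L1 copies called higher numbered 1 (0.439%, beside 13.1%), 7 (2.40%, beside 16.2%), 7 (0.00362%, beside 0.169%) and 0 to 3 in the same order. Without EtOH replicate 2 there were 2 lower and 1 higher (all features 212 and 389), and without EtOH replicate 3 there were 3 and 3 (420 and 1912). Strand ratios called lower numbered 0 without L1ME3A_copy920 and 0 without the most abundant copy of each sum, which removes that same row. The difference in log2 strand ratio turned from -0.24 to 0.0648 with the median over subfamilies in place of the sum (exact permutation p 0.686). Apart from the removal of a copy, the cause of these shifts was not tested. No paired analysis was possible because the titles share no replicate numbers between groups and the numbers used here follow accession order. Counts limit the copies most: 228 of 234862 could be tested, and a row with few counts cannot show a difference at this depth.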
